A study of Drosophila melanogaster with 2 samples.

Results

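The aminoacyl-tRNA synthetase genes of Drosophila melanogaster were found by name: a 3-letter amino acid code followed by RS, or by RS-m for the mitochondrial enzymes. This gave 35 of the 13968 protein-coding genes on the chromosome arms, 20 cytoplasmic and 15 mitochondrial. Each was read for peaks of an NFAT-eGFP ChIP-seq experiment whose summit lay within 1000 bp of any of its annotated transcription start sites (TSSs). The study recovered DNA bound by NFAT, a Rel-domain transcription factor, from whole embryos aged 0 to 24 h of the strain NFAT-GFP, which carries an inserted NFAT-eGFP transgene. The description names an antibody against GFP, while the antibody field names NFAT. There was 1 group with 2 biological replicates, so no treated and untreated states were compared and no test between conditions was possible. Whole embryos mix all cell types and developmental ages, and the cells in which a peak arose cannot be told apart. Read totals are not part of peak lists, and the depth of either library is unknown.

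Aminoacyl-tRNA synthetases join each amino acid to its matching tRNA, the step at which the genetic code is read. Class I and class II enzymes have unrelated catalytic folds. Some cytoplasmic synthetases are held in a multisynthetase complex, best described in mammals, and mitochondria use a separate set of nuclear-encoded enzymes. In animals, synthetase genes are known to respond to amino acid shortage through the transcription factor ATF4, the product of crc in the fly.

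Peaks lay at 11 synthetase genes. The sequence around the summit is shown for 7 of them, chosen because they span the base composition and promoter elements described below and because the summit lies outside annotated UTRs. Each is the strand of the synthetase gene in the Release 6 genome sequence from RefSeq (dm6 coordinates), from 50 bases before to 50 bases after the summit except at AsnRS and beta-PheRS, where the window ends at the start of the transcript or at the end of the marked motif. Capitals mark the TATA box sequence TATAAA, the motif CGATAG, the M1BP element GGTCACACT or the core CACTG. Each is a match of letters on either strand and at any distance from a TSS. The strongest peak was that of LeuRS-m, with an AT-rich summit in an intron of its neighbour (chr3L:4824939-4825039, plus strand), and the next that of GluProRS (chr3R:23958477-23958577, minus strand), which holds none of these motifs.
LeuRS-m: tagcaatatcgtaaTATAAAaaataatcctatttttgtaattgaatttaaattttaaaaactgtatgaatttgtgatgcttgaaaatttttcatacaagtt
GluProRS: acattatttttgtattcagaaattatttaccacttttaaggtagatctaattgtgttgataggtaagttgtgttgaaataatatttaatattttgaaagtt
The AsnRS (chr2L:19131953-19132023, minus strand) and beta-PheRS (chr3R:24252678-24252757, minus strand) summits carry the CGATAG motif beside the TSS, and that of beta-PheRS also the element bound by the promoter factor M1BP.
AsnRS: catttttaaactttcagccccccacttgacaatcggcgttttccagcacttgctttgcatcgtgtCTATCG
beta-PheRS: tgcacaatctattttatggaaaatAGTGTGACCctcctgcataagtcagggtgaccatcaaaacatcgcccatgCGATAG
The summits of ArgRS-m (chr3R:7886840-7886940, plus strand), ThrRS (chr2L:12103545-12103645, plus strand) and IleRS (chr3L:22288466-22288566, plus strand) lie between the synthetase gene and a gene that runs the other way.
ArgRS-m: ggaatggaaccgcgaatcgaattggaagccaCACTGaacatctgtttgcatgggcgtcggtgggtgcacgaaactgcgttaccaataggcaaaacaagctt
ThrRS: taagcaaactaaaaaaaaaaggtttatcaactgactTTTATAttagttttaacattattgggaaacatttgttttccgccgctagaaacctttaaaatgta
IleRS: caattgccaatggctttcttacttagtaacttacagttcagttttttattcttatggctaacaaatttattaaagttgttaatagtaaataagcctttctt

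A peak of the larger thresholded list lay at 11 of the 35 synthetase genes (31.4%, Wilson 95% interval 18.6 to 48.0%), against 3709 of all 13968 protein-coding genes (26.6%). The larger list holds 4899 peaks on the arms that passed an irreproducible discovery rate (IDR) of 0.01. This limit was set by the authors on how well a peak's rank repeats. A separate IDR between the 2 replicates goes with a smaller, conservative list. The synthetase share was near that of all genes, so the count by itself sets the family apart in no direction. Cytoplasmic enzymes held a peak in 8 of 20 cases (40%, interval 21.9 to 61.3%) and mitochondrial ones in 3 of 15 (20%, interval 7.05 to 45.2%). These intervals, which cover counting error only, overlap each other and hold the 26.6% of all genes. Other genes of protein synthesis held peaks more often by count: 65 of 92 cytoplasmic ribosomal protein genes (70.7%), 32 of 73 mitochondrial ribosomal protein genes (43.8%) and 23 of 54 translation factor genes (42.6%). Where a synthetase gene did hold a peak, the median signal of its strongest peak was 146, against 113.6 over all genes with a peak. Synthetase peaks also in the replicate 1 thresholded list had a median of 60.1 there, against 59.2 over that whole list. In the replicate 2 thresholded list the medians were 72.5 and 67.0. The signal is the authors' own value per peak on a scale not given in the sources used here, and it serves only to order peaks within a list.

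**Figure D1:**
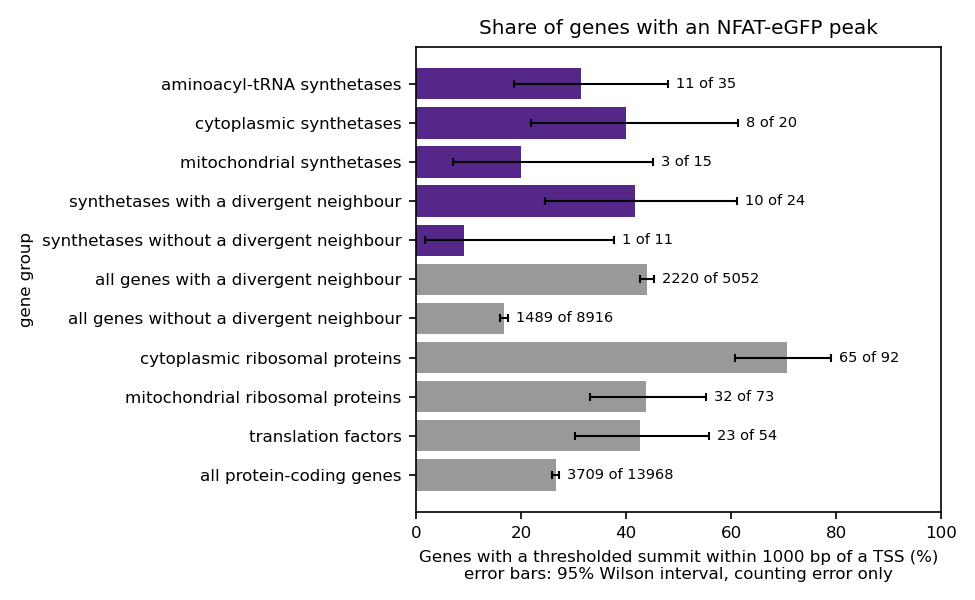
Share of genes, in percent, with a summit of the larger thresholded list within 1000 bp of a TSS, for synthetase groups (purple) and other groups (grey); bars start at 0 and error bars are Wilson 95% intervals. The synthetase bar (31.4%) stands near that of all protein-coding genes (26.6%), and the bars split by a divergent neighbour lie furthest apart within the family.

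The enzyme classes and the multisynthetase complex divided the peaks no more sharply. Class II genes held a peak in 6 of 16 cases (37.5%) and class I genes in 4 of 18 (22.2%), while GluProRS, which carries both catalytic folds in a single protein, held one. Of the 8 genes whose products belong to the complex in mammals, 3 held a peak (GluProRS, IleRS and AspRS), against 5 of the 12 other cytoplasmic genes. Peaks were found at 3 of 6 synthetase genes on 2L, 3 of 7 on 3R, 3 of 10 on 3L, 2 of 8 on 2R and 0 of 4 on X. The shares of all protein-coding genes were 25% on 2L, 27% on 3R, 28.3% on 3L, 28% on 2R and 25% on X. With 4 genes, the X count leaves an interval up to 49.0%, which holds the share of all genes on that arm. Against the 26.6% of all genes, the counts by class and complex are likewise descriptions of a few genes each.

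Among the cytoplasmic enzymes of the complex, GluProRS (FBgn0005674) stood highest. It encodes the bifunctional synthetase that charges the tRNAs for glutamate and proline. Its peak (chr3R:23958423-23958638) had a signal of 335, rank 234 of 4899, with 134 in replicate 1 and 204 in replicate 2. The intergenic summit lay 136 bp upstream of the GluProRS TSS and 124 bp upstream of that of AP-1sigma, a clathrin adaptor subunit gene on the other strand. The antisense RNA gene asRNA:CR46092 also lies within 1000 bp of the summit, and a peak list does not show to which of these genes the binding belongs.

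IleRS and AspRS, the other complex members with a peak, ranked lower. IleRS (FBgn0027086), the isoleucine enzyme, had its peak at chr3L:22288374-22288657 with a signal of 120.2, 51.2 in replicate 1 and 67.8 in replicate 2. The summit was 149 bp upstream of IleRS and 321 bp from Hem, a gene of the actin-regulating WAVE complex. AspRS (FBgn0002069), the aspartate enzyme, was the 1 synthetase gene with more than 1 peak, and both lay at an internal TSS of the gene, where it overlaps Nmda1. The stronger (chr2R:12880098-12880381) had a signal of 109, 54.2 in replicate 1 and 58.3 in replicate 2, and lay 44 bp upstream of that TSS in the 5' UTR of a longer AspRS transcript. The weaker (chr2R:12879686-12879969) had a signal of 75.3, 37.9 in replicate 1 and 40.7 in replicate 2, and lay 456 bp upstream in introns of both genes. Nmda1 has TSSs 10 and 30 bp from these summits, nearer than AspRS. Neither peak was at the first AspRS TSS, which faces Lfg across 38 bp, and with the 5'-most TSS of each gene alone AspRS had no peak.

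The cytoplasmic enzymes outside the complex held 5 peaks. SerRS (FBgn0031497), the serine enzyme, had the strongest (chr2L:3037287-3037570, signal 186), with 61.9 in replicate 1 and 122 in replicate 2. Its TSS and that of CG17260 are 8 bp apart, and the summit, 26 bp upstream of SerRS and 18 bp inside CG17260, fell in the 5' UTR of CG17260. AsnRS (FBgn0086443), the asparagine enzyme, followed at chr2L:19131831-19132114 with a signal of 147, 58.3 in replicate 1 and 88.0 in replicate 2. Its summit was 19 bp upstream of AsnRS and 350 bp from DCTN6-p27, a dynactin subunit gene.

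The gene for the beta subunit of the phenylalanine enzyme, beta-PheRS (FBgn0039175), was the 1 synthetase gene with a peak that it shared with no other protein-coding gene. The peak (chr3R:24252565-24252848) had a signal of 147, 43.2 in replicate 1 and 107 in replicate 2, and its summit lay 28 bp upstream of the TSS. The partner subunit gene alpha-PheRS had no thresholded peak within 1000 bp, and its strongest ranked peak had a signal of 34.8. The subunits of this enzyme work as a tetramer, so the genes of 1 enzyme stood on opposite sides of the IDR limit.

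ThrRS and ValRS complete the cytoplasmic group. ThrRS (FBgn0027081), the threonine enzyme, had a peak at chr2L:12103453-12103736 with a signal of 138, 67.8 in replicate 1 and 68.2 in replicate 2, between ThrRS (156 bp) and Patsas (310 bp). ValRS (FBgn0027079), the valine enzyme, had the weakest peak of the family (chr2R:13198209-13198492, signal 69.9, rank 3583), and its replicates stood furthest apart, with 16.8 in replicate 1 and 54.2 in replicate 2. The summit was 499 bp upstream of ValRS and 14 bp from the histone demethylase gene Kdm4B. It was not in the conservative list, which 10 of the 11 genes entered.

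The mitochondrial enzymes held the strongest peak of the family and 2 others. LeuRS-m (FBgn0027085), for leucine, had a signal of 363 (chr3L:4824933-4825076), rank 195 of 4899, with 144 in replicate 1 and 210.2 in replicate 2. The summit lay 864 bp upstream of LeuRS-m and inside an intron of Dhc64C, the cytoplasmic dynein heavy chain gene, 698 bp from its TSS. ArgRS-m (FBgn0037526), for arginine, had a signal of 146 (chr3R:7886748-7887031), 70.4 in replicate 1 and 72.5 in replicate 2, midway between ArgRS-m (155 bp) and CG17816 (157 bp). AlaRS-m (FBgn0028962), for alanine, had a signal of 86.1 (chr3L:5145945-5146228), 29.1 in replicate 1 and 56.6 in replicate 2, and lay 11 bp upstream of AlaRS-m and 24 bp from Fitm, a lipid storage gene.

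**Figure D2:**
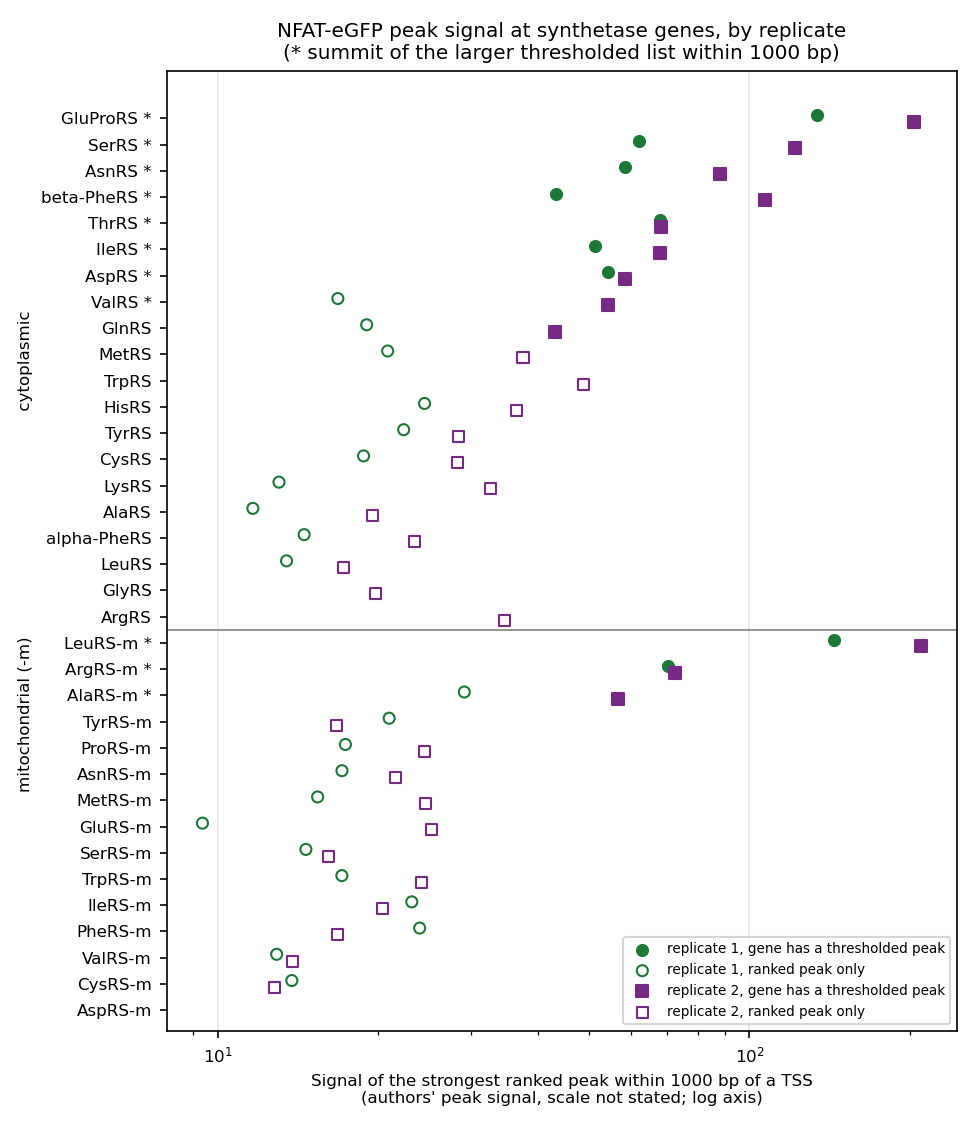
Signal (log axis, authors' scale) of the strongest ranked peak within 1000 bp of a TSS, 1 row per synthetase gene, circles for replicate 1 and squares for replicate 2; filled marks show that the gene has a thresholded peak in that replicate, and asterisks a peak of the larger list. LeuRS-m and GluProRS lie to the right of the others in both replicates, and AspRS-m has no mark.

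No amino acid had peaks at both its cytoplasmic and its mitochondrial gene. Of the mitochondrial genes, 3 of 15 held a peak (20%), against 26.6% of all genes, so at most 3 amino acids could have had both. Among the 15 amino acids with a gene of each kind, 8 had a peak at the cytoplasmic gene alone (Asn, Asp, Ile, Phe, Ser and Val, and Glu and Pro through GluProRS). Another 3 had one at the mitochondrial gene alone (Ala, Arg and Leu), and 4 had none (Cys, Met, Trp and Tyr). The other 5 amino acids, Gln, Gly, His, Lys and Thr, have no gene with an RS-m name, and of these only ThrRS held a peak. With 11 genes holding a peak this split is a description, and its difference from an even spread was not tested.

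Most synthetase genes with a peak had a divergent neighbour, a protein-coding TSS on the other strand within 1000 bp upstream. Such a neighbour was present at 24 of all 35 synthetase genes and at 5052 of all 13968 genes. Of the synthetase genes with a divergent neighbour, 10 of 24 held a peak (41.7%), against 1 of 11 without a divergent neighbour (9.09%). Over all protein-coding genes the shares were 43.9% with a divergent neighbour and 16.7% without, so the family's counts stood beside a like split over the genome. A peak between head-to-head genes counts for both of them, and the 10 genes shared each of their peaks with a neighbour. Among all genes with a peak, 2324 of 3709 (62.7%) shared it. When each summit was given only to the gene with the nearest TSS, 6 synthetase genes kept a peak (17.1%), against 19.7% of all genes. These were AlaRS-m, ArgRS-m, AsnRS, IleRS, ThrRS and beta-PheRS. The peaks of AspRS, GluProRS, LeuRS-m, SerRS and ValRS went to the neighbour.

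Compartment and arrangement overlapped. A divergent neighbour was present at 17 of the 20 cytoplasmic genes and 7 of the 15 mitochondrial ones. Among genes that had one, 7 of 17 cytoplasmic and 3 of 7 mitochondrial genes held a peak, and among those that had none, 1 of 3 and 0 of 8. The lower mitochondrial count thus cannot be told apart from the promoter arrangement in these numbers. The distance between the head-to-head TSSs was 8 to 513 bp (median 286) at genes with a peak and 53 to 561 bp (median 226.5) at genes without. The distance taken for AspRS was the 38 bp to Lfg, although its peaks lay near Nmda1 TSSs instead.

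All 12 pairs of a synthetase gene and a peak had the summit upstream of the synthetase TSS, against 3592 of 4666 pairs (77.0%) over all genes. In 9 of the 12 it was within 200 bp, against 57.7% over all genes. The median distance was 142.5 bp for the synthetases and 144 bp over all genes. A peak between divergent genes is upstream of both, so the upstream position is shared with the neighbour in most of these pairs. In 10 of the 12 the peak was 284 bp long with the summit at its midpoint, a length held by 4135 of the 4899 peaks, so positions finer than the peak should be read with that in mind.

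**Figure D3:**
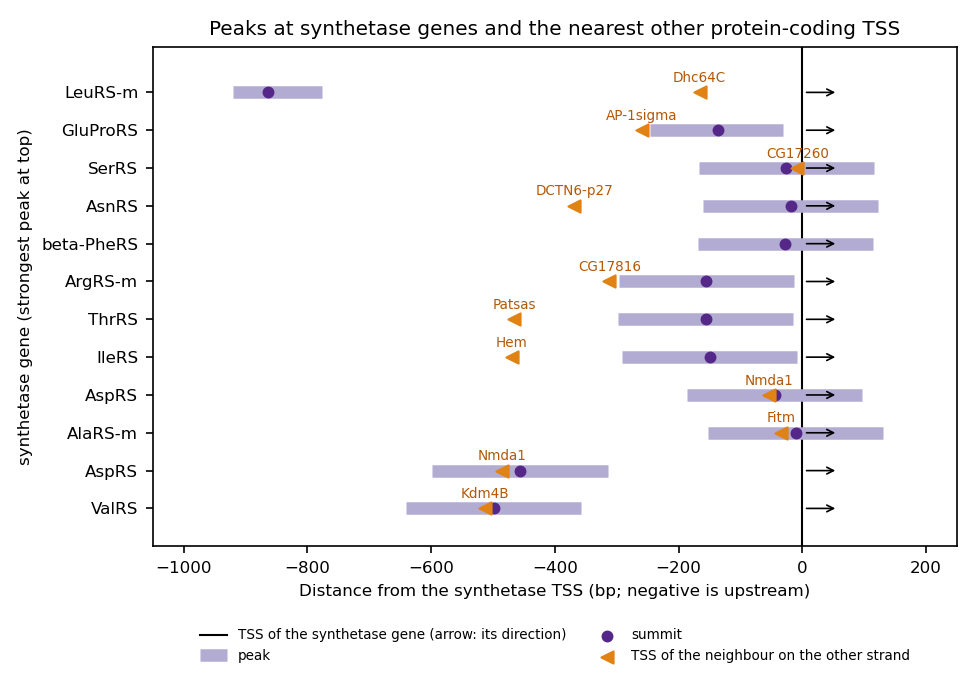
Peaks (bars) and summits (dots) at synthetase genes by distance in bp from the synthetase TSS, strongest at the top, with the nearest protein-coding TSS on the other strand as a triangle. Every summit lies to the left of the TSS, 9 of 12 within 200 bp of it, and beta-PheRS alone has no neighbour marked.

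LeuRS-m and GluProRS led the family in both replicates, and among the 12 thresholded peaks the ranks differed most at ValRS. They ranked 210 and 243 among the 108240 ranked peaks of replicate 1 on the arms, and 220 and 236 among the 113128 of replicate 2. ValRS ranked 28245 in replicate 1 and 2877 in replicate 2. Of the 12 peaks, 9 were in the thresholded lists of both replicates. AlaRS-m and ValRS missed the replicate 1 list, and the stronger AspRS peak missed the replicate 2 list while the weaker one passed. By gene, the replicate 1 list held a peak at 9 synthetase genes (25.7%), against 15.0% of all genes. The replicate 2 list held one at 12 (34.3%), against 24.2%. The gene that replicate 2 added was GlnRS, with a signal of 43.0. The conservative list held 10 synthetase genes (28.6%), against 22.7% of all genes.

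Replicate signals have no shared scale, so they were compared by rank. The percentile within the ranked list was higher in replicate 1 at 7 of the 12 peaks. Summits of the same peak lay 1 to 108 bp apart between replicates, with a median of 17 bp and the largest gap at SerRS. A q-value under 0.05, a choice made after the data were seen, was met by 10 of the 12 peaks, against 56.1% of the list. It left 10 synthetase genes (28.6%), against 18.7% of all genes. The exceptions were the ValRS peak (q = 0.195) and the weaker AspRS peak (q = 0.120).

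The 24 synthetase genes without a thresholded peak mostly had a weak one in the ranked series-level list, which goes down to low signals. Such a ranked peak lay near 21 of them, with signals between 16.2 (LeuRS) and 65.4 (GlnRS) and a median of 35.9. In all, 32 of 35 synthetase genes had some ranked peak (91.4%), against 86.7% of all genes, a similar share. GlyRS, ArgRS and AspRS-m had none in that list. In replicate 2 alone ArgRS had a ranked peak of 34.6 and GlyRS one of 19.8.

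The order of signals ran across the IDR limit without a gap. The lowest signals inside it were those of AlaRS-m (signal 86.1) and ValRS (69.9, −log10 IDR 2.09, where the limit is 2). Between the 2 replicates, in the ranked list behind the conservative list, the ValRS peak had a −log10 IDR of 0.639. The other IDR values given here are those of the ranked list that holds the larger list. The IDR itself did not follow the signal in order. The highest signals outside the limit were those of GlnRS (65.4, −log10 IDR 1.42), MetRS (53.7, 1.97), TrpRS (52.9, 0.347) and HisRS (52.5, 1.93). These charge glutamine, methionine, tryptophan and histidine, and their strongest ranked summits lay 105, 22, 66 and 47 bp upstream of the TSS. Further down, the signals were 48.2 at TyrRS, 43.2 at CysRS, 38.3 at LysRS and 35.9 at AlaRS. The remaining mitochondrial genes ran from 41.4 at TyrRS-m, 40.2 at ProRS-m and 39.8 at AsnRS-m through MetRS-m, GluRS-m, SerRS-m, TrpRS-m, IleRS-m and PheRS-m to 24.1 at ValRS-m and 22.5 at CysRS-m. At 2000 bp AlaRS and alpha-PheRS also gained a thresholded peak.

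Base composition separated the synthetase summits. Of the 12 windows from 50 bp before to 50 bp after a summit, 5 had an AT content above the upper quartile of all summits (65.3%): LeuRS-m (81.2%), GluProRS (78.2%) and SerRS, ThrRS and IleRS (73.3% each). The other 7 lay between 49.5 and 61.4%, with AlaRS-m and ArgRS-m lowest. The median was 59.4% at synthetase summits and 56.4% over all 4899 summits. The 3 strongest synthetase peaks were all in the AT-rich group, a description of 12 windows only.

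Motifs of housekeeping promoters were found at the less AT-rich summits. The search covered 11 motifs on both strands of the same windows. Shares over all summits carry no limit on distance to a TSS, while synthetase summits lie within 1000 bp of one. The 2 sets are thus not matched for promoter position. CGATAG, a variant of the DNA replication-related element (DRE) bound by Dref, was at 5 of 12 synthetase summits (41.7%: AsnRS, beta-PheRS, ValRS and both at AspRS), against 9.33% of all summits. TATCGA was at 4 of 12 (33.3%), against 10.9%, and the full DRE, TATCGATA, which holds TATCGA, at 1 of 12 (8.33%, AspRS), against 3.25%. The same bases can count for several of these, since CGATAG and TATCGA overlap the DRE and each other. The M1BP element GGTCACACT was at 2 of 12 (16.7%, beta-PheRS and ValRS), against 1.31%. The ValRS summit is 14 bp from the Kdm4B TSS, and the AspRS summits are 10 and 30 bp from Nmda1 TSSs. Those neighbours are nearer than the synthetase TSS. The promoters at the 5'-most TSS of ValRS and AspRS held none of these motifs.

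Other elements were spread differently. TATAAA was at 4 of 12 synthetase summits (33.3%: LeuRS-m, SerRS, ThrRS and AlaRS-m), against 11.6% of all summits. LeuRS-m, SerRS and ThrRS are in the AT-rich group, and the summits compared were not matched for base composition. The initiator TCAGT was at 4 of 12 (33.3%), against 19.2%, and the E-box CAGCTG at 2 of 12 (16.7%), against 6.35%. CACTG was at 3 of 12 (25%), against 30.0%. The NFAT core GGAAA was at 4 of 12 (33.3%: AsnRS, SerRS, ThrRS and beta-PheRS), against 26.4%. Neither the ATF4 element TGATGNAAT (0.265% of all summits) nor the E-box CACGTG (1.12%) was at a synthetase summit. With 12 windows, each count is a description, and a match is not evidence of a bound site.

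Whole promoters, 250 bp before to 50 bp after the 5'-most TSS, gave another picture. CAGCTG was in 17 of 35 synthetase promoters (48.6%), against 17.7% of all genes, at 6 of the 11 genes with a peak and 11 of the 24 without. The motif was thus present in promoters with and without a peak. CACTG was in 23 of 35 (65.7%), against 46.2%, the M1BP element in 5 (14.3%), against 6.04%, and the full DRE in 5 (14.3%: AlaRS, ArgRS, IleRS, PheRS-m and TrpRS), against 9.36%. IleRS alone of the DRE promoters had a peak. TCAGT was in 19 (54.3%), against 51.6%, and stood at 10 of the 11 synthetase genes with a peak and 9 of the 24 without, where 47.0% of all genes with a peak held it. This split was seen among 11 motifs and was not tested. GGAAA was in 20 (57.1%), against 59.6%, TATAAA in 19 (54.3%), against 45.9%, TATCGA in 10 (28.6%), against 27.7%, and CGATAG in 10 (28.6%), against 19.5%. CACGTG was in 2 (5.71%), against 4.23%, and TGATGNAAT in none of the 35, against 1.23%. Among genes with a peak, CGATAG was in 4 of 11 synthetase promoters against 27.8% of all genes, and TATCGA in 2 of 11 against 36.0%. The full DRE was in 1 of 11 against 13.6%, and the M1BP element in 1 of 11 against 8.92%.

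Genes that work beside the synthetases were read in 5 lists with the same window, each beside the 26.6% of all genes. Of 8 partners of tRNA charging, 2 held a peak: GatA, a subunit of the mitochondrial amidotransferase that completes glutaminyl-tRNA (signal 420), and AIMP1, a scaffold of the multisynthetase complex (84.4). The scaffolds AIMP2 and AIMP3 held none. Genes of tRNA processing and modification held peaks in 13 of 33 cases (39.4%), led by Tcs5 (1437), Elp5 (927), Trmt6 (452) and Elp6 (151), which modify tRNA bases. Rpp14a and Rpp14b share a peak.

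RNA polymerase III, which transcribes the tRNA genes, had peaks at 4 of 13 listed genes (30.8%). Among them were the initiation factor genes Bdp1 (238) and Brf (220.2) and the subunit gene Polr3E (109), while its repressor Maf1 had none. Of 5 genes of the eEF1 complex, which brings charged tRNA to the ribosome, eEF1gamma (419) and eEF1alpha1 (216) held a peak. The amino acid response and synthesis list had 11 of 19 (57.9%), led by the Sestrin gene Sesn (494), the proline synthesis gene P5cr (420), the translation repressor gene Thor (383) and the phosphoserine phosphatase gene aay (267). AsnS, the asparagine synthetase gene, had a signal of 189. Of the same list, crc (ATF4) and the kinase genes Gcn2 and PEK held no thresholded peak. GatA and P5cr share a single peak, which counts in both lists.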

How the data were processed

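Peaks of 2 biological replicates were taken as deposited on the dm6 assembly, per the labels: thresholded and ranked lists for each replicate and for both together, with a larger and a conservative thresholded list. The sources used here name neither the aligner nor the peak caller. Chromatin was sonicated to a size range of 200 to 800 (unit not given), per the labels. The deposited signal per peak is the authors' value on an unstated scale, the deposited −log10 q-value is that of the peak, and the deposited ranked lists give a −log10 IDR, with a highest value of 5. The thresholded lists end at an IDR of 0.01. A further 4 columns of matched signals in the series-level ranked lists were not used.

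Summits on the arms were assigned to every protein-coding gene with a TSS within 1000 bp (Ensembl release 115, BDGP6.54). Of the larger list, 4899 of 4924 peaks lay on the arms. Sequences and motifs came from the Release 6 genome sequence of RefSeq, and all peak ends lay within its arm lengths. Synthetase peaks were matched to each replicate's ranked list by overlap of at least 1 bp. Every synthetase gene is named. Of each pathway list, up to 4 genes with the strongest peak are named, and other list genes named were chosen after their values were seen. Some list genes are not reported here. Of 90 listed symbols, 77 matched by symbol, 1 by synonym and 12 by neither, and these 12 were left out. Shares carry Wilson 95% intervals for counting error only. The members and lists were chosen with earlier results of these data known, so counts are given beside all genes with no test. Steps were tested on simulated data. Python 3.11.15, NumPy 2.4.6, pandas 2.3.3, SciPy 1.17.1 and matplotlib 3.10.9 were used. Control experiments, alignments and signal tracks were not used here.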

Additional observations from a re-analysis of the deposited data

How the results depend on the processing

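As reported, 11 synthetase genes (31.4%) and 26.6% of all genes held a peak. Leaving out a replicate gave 9 to 12 synthetase genes (25.7 to 34.3%) against 15.0 to 24.2% of all genes. Median peak percentiles within those replicate lists were then 50.9 to 54.1 (75.2 within the larger list), and median distances were 142.5 to 149.5 bp. Each percentile is taken within its own thresholded list, and the lists differ in size, so the percentiles share no scale. Only giving each summit to the nearest gene (6 genes, 4 of them cytoplasmic, 19.7% of all genes, median distance 88.5 bp) and keeping genes that share no promoter region (1 of 9 genes, 1 of 1 cytoplasmic, 0 of 8 mitochondrial, 16.3%, 28 bp) moved the count of synthetase genes by over 1.5 times; both act on shared promoters by construction. The share of all genes was 22.7% with the conservative list, 23.4% at 500 bp, 31.7% at 2000 bp, 27.3% with any base of the peak, 24.8% with the 5'-most TSS, 17.2% with the stronger 50% of peaks and 18.7% with a q-value under 0.05. The median distance was 136 bp with the conservative list (median percentile 71.0), at 500 bp and in the stronger 50%, 155 bp at 2000 bp, 149 bp with any base and 90 bp under the q-value limit. In windows reaching 100 bp either side of the summit, CACTG was at 6 of 12 summits (50%), against 50.1% of all summits. The ATF4 element was at 1 (8.33%, AsnRS), against 0.694%. No paired analysis was possible because there was 1 group. With 2 replicates and unknown depth, a missing peak cannot be read as missing binding.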
